A study of Mus musculus with 4 samples.

Results

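Genes of fibroblast growth factor (FGF) signalling through the kinase ERK were examined by PRO-seq in mouse embryonic stem (mES) cells. Signal was compared before and after depletion of the zinc-finger protein Zfp574. Most of the genes encode feedback inhibitors or outputs of the pathway, whereas Fgfr1 and Fgf4 encode a receptor and a ligand. The list named 10 genes and was matched to the count table by gene name. Of these, 9 had a row among the 12486 genes of the table: the receptor gene Fgfr1, the Sprouty genes Spry2 and Spry4, the Spred genes Spred1 and Spred2, the phosphatase genes Dusp4 and Dusp6, and the transcription factor genes Etv4 and Etv5. The ligand gene Fgf4 had no row, so it has no PRO-seq values here and enters only the promoter search.

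In mES cells, FGF ligands made by the cells themselves bind Fgfr receptors and activate Ras, Raf, Mek and ERK in turn. Active ERK induces the ETS-family factors Etv4 and Etv5, and also induces inhibitors of its own pathway, which act on Ras and Raf (Sprouty and Spred proteins) or remove phosphate from ERK (Dusp phosphatases). These induced genes are widely read as a gauge of ERK activity. The pathway is known for moving mES cells out of naive pluripotency and towards primitive endoderm.

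All cells were of the AID-Zfp574 line, in which an auxin-inducible degron was fused to the N terminus of Zfp574 in an OsTir1 parental line. That parental line carries an EF1a-driven cassette of ARF16-HA, OsTiR1 and mCherry, so control and depleted cells shared the degron and the auxin receptor. Controls were collected at 0 h without auxin, and depleted cells after 6 h in 500 µM of the auxin indole-3-acetic acid (IAA), with 2 biological replicates each. The cells grew without feeders in medium with serum and leukemia inhibitory factor, and Drosophila S2 cells were added to the nuclei as a spike-in. Knock-in cells were isolated as individual clones, and how many clones entered PRO-seq is not given in the sources used here. Untagged cells given IAA were not analysed here, so effects of Zfp574 loss and of IAA itself cannot be told apart. The controls are labelled 0 h, so effects of time in culture and of handling cannot be told apart from these either.

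PRO-seq counts RNA polymerase caught in the act of transcription along a gene, and not the amount of finished mRNA. Library totals ran from 3298864 to 3616429 counts in the controls and from 5670904 to 6045216 after depletion. Levels below are CPM, each count taken relative to its library's TMM-scaled total. A gene counted as called where edgeR's quasi-likelihood test over 11853 genes gave an adjusted p under 0.05. Transcription of Zfp574, whose protein is what the degron removes, was not called (log2 fold change 0.25 ± 0.14 SE, adjusted p = 0.406). Leaving out control replicate 1 gave 0.01 for it, and leaving out control replicate 2 gave 0.57. Of 11 markers of mES cells, 10 were tested, and their summed level was between 5040 and 5111 CPM in the controls and between 5114 and 5190 CPM after depletion.

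None of the 9 genes was called higher or lower after Zfp574 depletion, against 2.51% of all genes tested, 1.11% higher and 1.4% lower. With a further threshold of 2-fold the count was again 0, against 0.321% of all genes. Their log2 fold changes lay between -0.17 (Dusp6) and 0.24 (Spry4), with 6 above 0 and 3 below. The 95% interval of every one of the 9 lay inside a 1.5-fold change in either direction. At an unadjusted p under 0.05, 4 genes were higher (Spred2, Spry4, Spred1 and Dusp4) and 0 were lower, against 8.53% of all genes tested higher and 7.66% lower. DESeq2 called 0 of the 9 as well, against 0.118% of all genes higher and 0.515% lower. The median of the 9 was 0.09, beside -0.0021 over all genes tested.

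**Figure D1:**
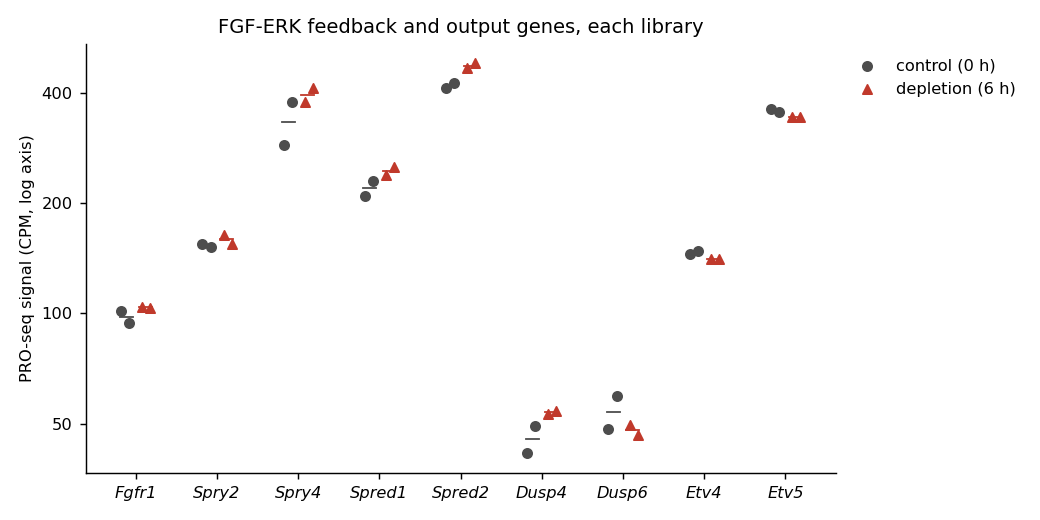
PRO-seq signal in CPM (log axis) of the 9 genes in the 2 control libraries (grey circles) and the 2 depletion libraries (red triangles), with short lines at the group means. Spry4, Dusp4 and Dusp6 show wide gaps between the control libraries, whereas Etv4 and Etv5 lie close together in every library.

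Promoter sequences were searched for letters bound by factors that ERK is known to act through. RefSeq windows of 300 bases (250 before the start and 50 after it, GRCm38.p6) were at hand for 6 of the 10 listed genes, 7 windows in all. Fgf4 was among the 6, and Dusp4, Etv4, Fgfr1 and Spry4 had no window. Neither of the longer ETS strings ACCGGAAG and CCGGAAGT, which overlap each other, occurred in the 7 windows on either strand, and nor did the AP-1 site TGANTCA, the CRE TGACGTCA or the CArG box. Over all 32851 windows, 2.30%, 3.89%, 7.81%, 1.79% and 1.63% held them, in that order. A match or its absence in such a window says only which letters are there.

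The 100 bases before the RefSeq start are shown for Spry2, the gene with the highest level per kb, for Spred2, closest to a call, and for Dusp6, with the lowest log2 fold change. Capitals mark GGAA or its complement TTCC, the core letters within both ETS strings, a choice made after the longer strings had been searched. These cores occurred 3 times in the Spry2 stretch (chr14:105896820-105896919, minus strand), 4 times in that of Spred2 (chr11:19924342-19924441, plus strand) and 2 times in that of Dusp6 (chr10:99263131-99263230, plus strand). The RefSeq start of Spred2 lies inside the gene as GENCODE gives it, so that 67 of its 100 bases and 3 of its 4 cores fall within the Spred2 span used here, whereas the stretches of Spry2 and Dusp6 end where the span begins. At least 1 such core was found in 66.8% of all stretches of this length.
Spry2: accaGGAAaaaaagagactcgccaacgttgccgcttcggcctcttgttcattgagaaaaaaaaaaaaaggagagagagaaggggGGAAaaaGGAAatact
Spred2: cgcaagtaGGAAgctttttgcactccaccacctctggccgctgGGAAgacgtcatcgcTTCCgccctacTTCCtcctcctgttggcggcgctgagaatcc
Dusp6: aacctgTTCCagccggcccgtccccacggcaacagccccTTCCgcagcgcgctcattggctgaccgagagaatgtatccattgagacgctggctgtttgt

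Fgfr1 (chromosome 8, 25513654 to 25575718, plus strand, mm10) encodes the main FGF receptor of mES cells. Its signal was 102 and 93.9 CPM in the control libraries and 104 and 104 CPM in the depletion libraries. Both depletion libraries lay above both controls, by less than the gap between the controls. The log2 fold change was 0.09 ± 0.08 (SE), with a 95% interval from -0.07 to 0.25 and an adjusted p of 0.613.

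The Sprouty proteins are inhibitors that growth factor signalling induces and that restrain the path from receptor to Ras and Raf. Spry2 (chromosome 14, 105891947 to 105896819, minus strand), with 3 of the cores before its start, gave 155 and 152 CPM in the controls and 164 and 155 CPM after depletion. The lower depletion library and the higher control library were almost equal. Its log2 fold change was 0.06 ± 0.07 (SE), with a 95% interval from -0.08 to 0.19 and an adjusted p of 0.743.

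Spry4 stood at 288 and 378 CPM in the controls and at 379 and 412 CPM after depletion. The lower depletion library was level with control replicate 2, so the separation of the groups rested on control replicate 1. Its log2 fold change of 0.24 ± 0.08 (SE, 95% interval from 0.09 to 0.40) was the highest of the 9, at an adjusted p of 0.0835. Without control replicate 1 the log2 fold change was 0.07 (adjusted p = 0.730), and without control replicate 2 it was 0.46 (adjusted p = 1.31e-09). In the latter fit 2 of the 9 genes, Spry4 and Spred2, were called higher, against 2.24% of all genes.

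The Spred proteins are relatives of the Sprouty proteins that bind neurofibromin and bring it to Ras. Spred1 (chromosome 2, 117121374 to 117182279, plus strand) gave 209 and 231 CPM in the controls and 239 and 251 CPM after depletion. Its log2 fold change was 0.15 ± 0.06 (SE), with a 95% interval from 0.03 to 0.28 and an adjusted p of 0.210. The control libraries differed by more than the step from the higher control to the lower depletion library, and the value moved to 0.09 with control replicate 1 left out and to 0.23 with control replicate 2 left out.

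Spred2 (chromosome 11, 19924375 to 20024026, plus strand) gave 413 and 425 CPM in the controls and 467 and 481 CPM after depletion, and was the gene of the 9 closest to a call. Its groups were clearly apart, with gaps inside each group that were smaller than the gap between them. The log2 fold change was 0.18 ± 0.05 (SE), with a 95% interval from 0.07 to 0.28 and an adjusted p of 0.0607. limma-voom gave an adjusted p of 0.0401 and called Spred2 alone among the 9, against 1.27% of genes called higher by that test. The replicates of Spred2 had the most counts of the 9 genes, from 1373 to 2778.

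Dusp4 and Dusp6 encode phosphatases that remove phosphate from ERK, Dusp4 in the nucleus and Dusp6 in the cytoplasm. They were also the genes with the fewest counts. Dusp4 (chromosome 8, 34807297 to 34819894, plus strand) drew 138 and 181 counts from the controls, and 317 and 304 from the depletion libraries, or 41.5 and 49.4 CPM against 53.3 and 54.1 CPM. The depletion libraries were nearly equal and above both controls. Its log2 fold change was 0.24 ± 0.11 (SE), with a 95% interval from 0.02 to 0.45 and an adjusted p of 0.267, and it moved to 0.12 with control replicate 1 left out and to 0.37 with control replicate 2 left out.

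Dusp6 (chromosome 10, 99263231 to 99267489, plus strand) drew 161 and 218 counts from the controls, and 295 and 261 from the depletion libraries, or 48.4 and 59.5 CPM against 49.6 and 46.5 CPM. It was the gene of the 9 whose groups overlapped. Its log2 fold change was -0.17 ± 0.11 (SE), the lowest of the 9, with a 95% interval from -0.40 to 0.05 and an adjusted p of 0.461. Leaving out control replicate 1 gave -0.31 and leaving out control replicate 2 gave -0.01, so that Dusp4 and Dusp6 lay on opposite sides of 0 in each of these fits.

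Etv4 and Etv5 encode ETS transcription factors of the same subfamily and are standard transcriptional outputs of FGF signalling. Etv4 (chromosome 11, 101769742 to 101785371, minus strand) gave 146 and 148 CPM in the controls and 141 CPM in each depletion library. Etv5 (chromosome 16, 22381309 to 22439719, minus strand) gave 362 and 354 CPM in the controls and 344 CPM in each depletion library. In both genes the depletion libraries lay slightly below both controls. The log2 fold change was -0.06 ± 0.07 (SE, 95% interval from -0.20 to 0.07) for Etv4 and -0.06 ± 0.05 (SE, 95% interval from -0.17 to 0.05) for Etv5, with adjusted p values of 0.711 and 0.657.

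Counted over the list, the groups did not overlap in 8 of the 9 genes, 6 with higher and 2 with lower depletion libraries. Over all genes tested, 46.3% did not overlap, 23.4% with higher and 22.9% with lower depletion libraries. By role, the values above 0 were those of the receptor, the Sprouty and Spred genes and Dusp4, and the values below 0 were those of Dusp6 and both Etv genes. Whether the roles differ was not tested.

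**Figure D2:**
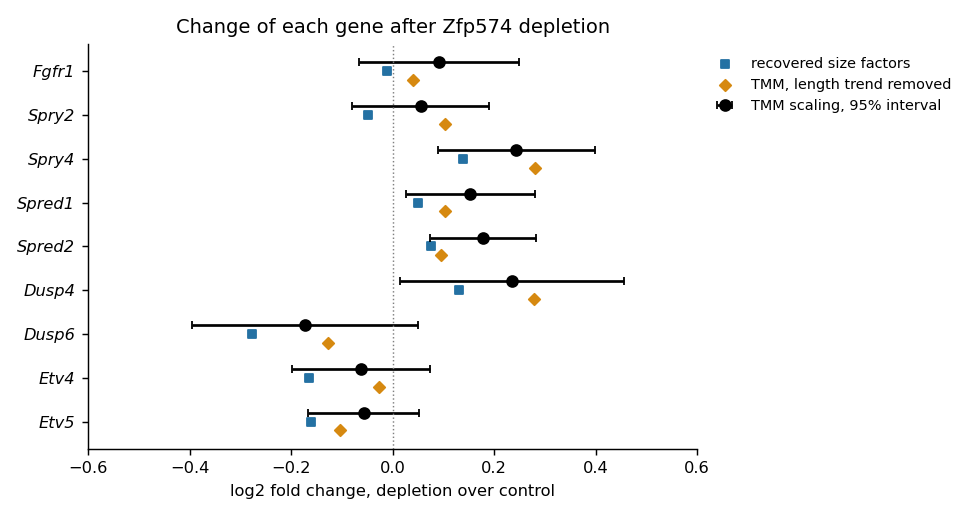
Log2 fold change of the 9 genes, depletion over control, with the 95% interval of the TMM-scaled fit (black circles), under the size factors recovered from the deposited table (blue squares) and with a trend on gene length removed (orange diamonds). The recovered factors shift every gene down by about the same step, and Fgfr1 and Spry2 pass below 0.

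These values are relative to TMM scaling, which holds the middle of all genes near 0. Size factors recovered from the authors' mean normalized signal moved the median of all genes tested to -0.11, and the 9 genes moved down with it. Spike-in counts were not used here, so whether transcription fell across all genes was not tested. Under these factors 4 of the 9 were above 0 and 5 below, with Fgfr1 at -0.012 and Spry2 at -0.048, and 0 were called, against 0.413% of genes called higher and 5.89% called lower. Spry4, at 0.14, and Dusp4, at 0.13, remained the highest of the 9, and Dusp6, at -0.28, the lowest.

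Gene length also moved with the change. Spred2 and Fgfr1 belonged to the ninth decile of gene length, in which all genes together had a median change of 0.06 (log2), and Spred1 and Etv5 to the eighth, with a median of 0.02. Spry4, Dusp4 and Etv4 lay in the fourth decile (median -0.05), Spry2 in the second (median -0.08) and Dusp6 in the first (median -0.06). With a smooth trend on length removed, Spred2 moved from 0.18 to 0.09 (adjusted p = 0.444), Spred1 to 0.10 and Fgfr1 to 0.04. The short genes moved the other way, Spry2 to 0.10, Dusp4 to 0.28 and Spry4 to 0.28. In that fit Spry4 had an adjusted p of 0.0425 and was the gene called among the 9, against 0.498% of all genes called higher. Spred2 and Spry4, the 2 genes closest to a call, thereby changed order. With the recovered factors and the length trend removed together, a setting added after the data were seen, Etv5 was called lower (-0.21, adjusted p = 0.0363), against 6.2% of all genes called lower.

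Per kilobase of annotated gene span, the 9 genes covered a wide range of levels. Spry2 was highest, at 31.5 ± 0.359 CPM per kb (SD, n = 2) in the controls, followed by Spry4 at 22.0 ± 4.20, Dusp6 at 12.7 ± 1.85, Etv4 at 9.41 ± 0.123 and Etv5 at 6.13 ± 0.0986 CPM per kb. Spred2 came next at 4.20 ± 0.0894, then Spred1 at 3.61 ± 0.253, Dusp4 at 3.61 ± 0.445 and Fgfr1 at 1.57 ± 0.0876 CPM per kb. Over all 4 libraries, the ranges of neighbours in this order overlapped only for Spred1 and Dusp4. The counts were taken over CAGE-corrected genes and the lengths are GENCODE spans, which need not cover the same bases. The Spry2 level per kb was above that of 98.0% of genes tested and that of Fgfr1 above 51.1%. The counts cover whole genes, with polymerase paused near the start included, so a level per kb holds paused and elongating polymerase together. Paused polymerase weighs more per kb in a short gene, and Spry2 spans 4.87 kb where Fgfr1 spans 62.1 kb. How far this shapes the order and the shares above was not tested.

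The control libraries differed from each other more in some of these genes than in others. On the log2 scale, control replicate 2 exceeded control replicate 1 by 0.39 in Spry4, 0.30 in Dusp6, 0.25 in Dusp4 and 0.14 in Spred1. The gap of Spry4 was larger than that of 98.8% of the 1266 genes with a mean count within 2-fold of its own, and the gap of Dusp6 was larger than that of 90.3% of 4209 such genes. The remaining 5 genes differed between the controls by 0.11 or less in size, from -0.11 in Fgfr1 to 0.04 in Spred2. Between the depletion libraries the widest gap was 0.12, again in Spry4.

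**Figure D3:**
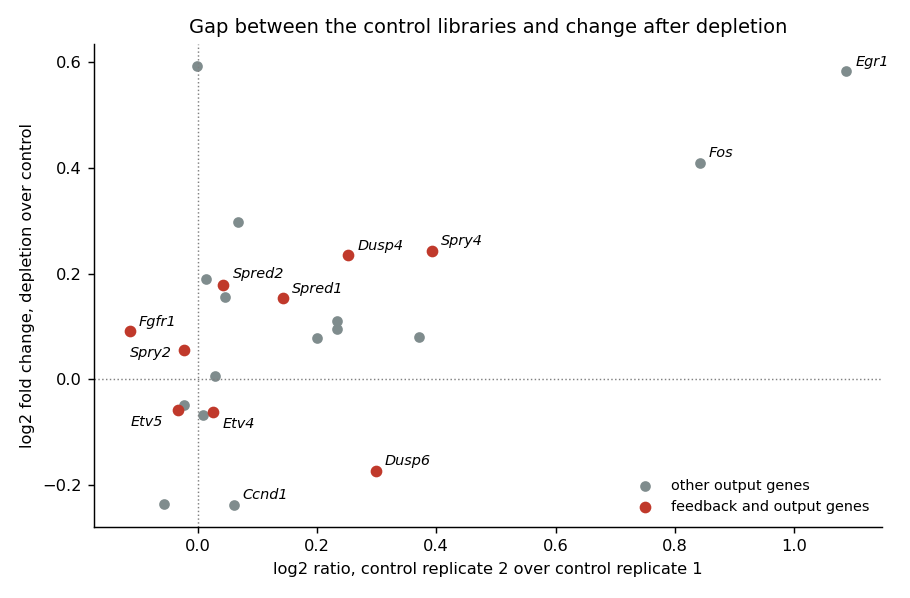
Log2 ratio of control replicate 2 over control replicate 1 (x axis) against the log2 fold change after depletion (y axis) for the 9 genes (red) and 15 other output genes of the pathway (grey). Egr1 and Fos have the widest gaps between the controls, at 1.09 and 0.84, and Spry4 the widest of the 9, at 0.39.

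The same gap was wider in 2 other output genes of the pathway, the immediate-early factor genes Egr1 and Fos. Egr1, a zinc-finger factor gene induced within minutes of ERK activation, had 203 and 431 CPM in the controls and 505 and 450 CPM after depletion. The gap between its control libraries was larger than in 99.1% of genes tested. Egr1 rose by 0.58 ± 0.15 (SE) on the log2 scale, at an adjusted p of 0.0262. It was no longer called without control replicate 1 (0.15, adjusted p = 0.175), without depletion replicate 1 (0.50, adjusted p = 0.311) or without depletion replicate 2 (0.67, adjusted p = 0.129), and was 1.24 without control replicate 2. Fos had 34.0 and 60.9 CPM in the controls and 63.5 and 63.9 CPM after depletion, a log2 fold change of 0.41 ± 0.14 (SE) with an adjusted p of 0.117.

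The rest of the pathway was described with 64 further genes, of which 55 had a row and 54 were tested. Egr1 was called higher and Ccnd1 was called lower, 2 of 54 against the 2.51% of all genes. The median of the 54 was 0.08 on the log2 scale, with 36 values above 0 and 18 below, beside 5858 and 5995 over all genes tested. With the length trend removed the median of the 54 was 0.055, beside -0.013 over all genes tested. At an unadjusted p under 0.05, 11 of the 54 were higher and 8 lower, where 8.53% of all genes were higher and 7.66% lower, or 16.2% in either direction.

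Ccnd1 encodes cyclin D1, which links growth factor signals to the cell cycle. It had 182 and 190 CPM in the controls and 158 CPM in each depletion library. Its groups were well apart, and it fell by 0.24 on the log2 scale (SE 0.06, adjusted p = 0.0380). The adjusted p was 0.161 with the length trend removed. When a single library was left out, the log2 fold change of Ccnd1 lay between -0.27 and -0.21.

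Among other ligand and receptor genes, 7 of 12 were tested and 0 were called, with a median of 0.06 and 2 at an unadjusted p under 0.05, Fgf15 and Fgf3, both lower (7.66% of all genes). Fgf15, which encodes a ligand, was the farthest from 0, at 29 and 30 counts per control library and 29 and 25 per depletion library, a log2 fold change of -0.85 ± 0.26 (SE, adjusted p = 0.0803). Among 24 genes of signal transduction, from the adaptor Grb2 to the kinase Rps6ka3, 23 were tested and 0 were called. Their log2 fold changes ran from -0.36 (Frs3, an adaptor gene) to 0.29 (Sos2, an exchange factor gene for Ras) with a median of 0.07, and 8 had an unadjusted p under 0.05, 7 of them higher and 1 lower (8.53% and 7.66% of all genes).

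Of 12 other feedback genes, 9 were tested and 0 were called, with a median of 0.08 and 3 at an unadjusted p under 0.05, all 3 lower (7.66% of all genes). The relatives of the genes above did not all share their sign. Spry1 was at -0.26 ± 0.10 (SE, adjusted p = 0.159) and Dusp9, another ERK phosphatase gene, at -0.33 ± 0.11 (SE, adjusted p = 0.113), and the third of these was Pebp1, which encodes an inhibitor of Raf, at -0.57 ± 0.26 (SE, adjusted p = 0.260). Dusp5 and Il17rd, which encode a nuclear ERK phosphatase and a membrane inhibitor of FGF signalling, were at 0.13 and 0.12, each with an adjusted p of 0.366. Fos, Fgf15, Fgf3, Sos2, Frs3, Spry1, Dusp9, Pebp1, Dusp5 and Il17rd were picked after their values were seen. By gene length, Fos and Dusp9 lay in the first decile (median -0.06). Fgf15, Fgf3, Spry1 and Pebp1 lay in the second (median -0.08). Frs3 and Dusp5 lay in the fourth (median -0.05), and Sos2 and Il17rd in the ninth (median 0.06).

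**Figure D4:**
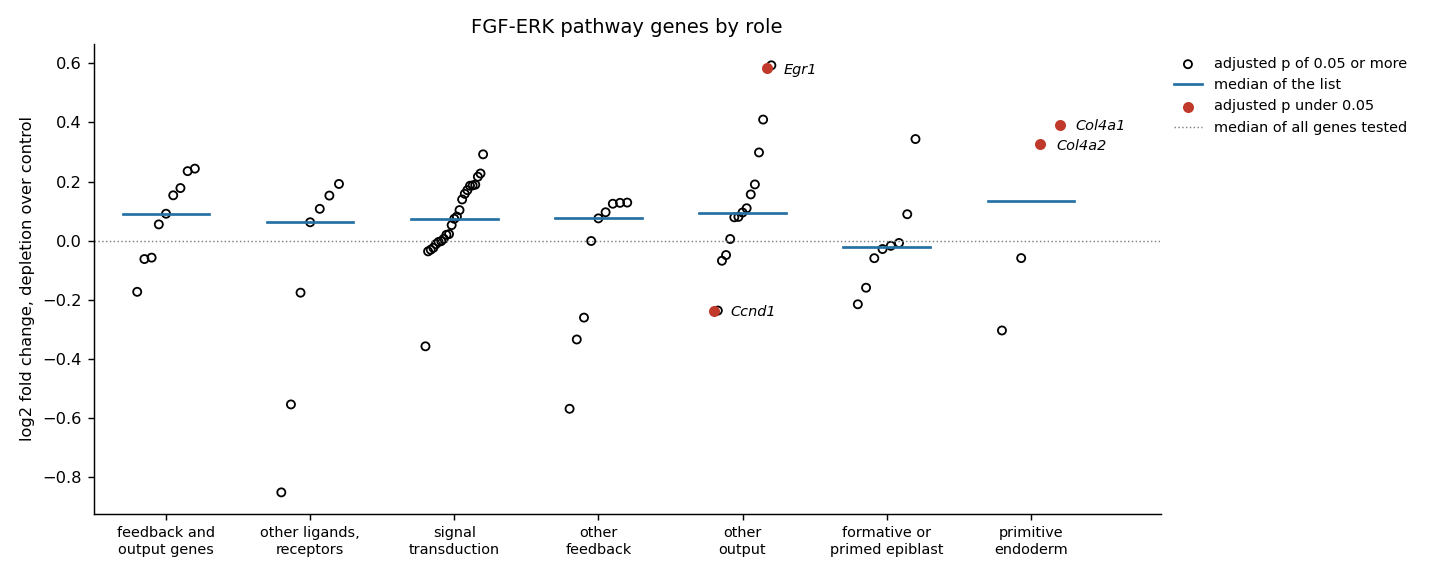
Log2 fold change of each gene tested, depletion over control, for the 9 listed genes (feedback and output genes with the receptor gene Fgfr1). Lists of the rest of the pathway and of the cell states it acts on are beside them. Filled red points passed an adjusted p under 0.05, open points did not, blue lines are list medians and the dotted line is the median of all genes tested; the 9 genes hold no filled point.

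Genes of the cell states that FGF-ERK signalling is known to favour were also counted. Of 10 genes of formative or primed epiblast, 8 were tested and 0 were called, with a median of -0.02 and 1 at an unadjusted p under 0.05, the DNA methyltransferase gene Dnmt3a, at 0.34 ± 0.11 (SE, adjusted p = 0.107; 8.53% of all genes were higher at that unadjusted level). Dnmt3a is a long gene, of 108 kb in the longest decile, with a median of 0.10 there. Of 10 primitive endoderm genes, 6 had a row and 4 were tested. Col4a1 and Col4a2, a pair of basement membrane collagen genes transcribed from neighbouring starts, were called higher, 2 of 4 against 1.11% of all genes. The other 2 genes tested, named like Dnmt3a after their values were seen, lay below 0 with groups that did not overlap. Over all genes tested, 22.9% had lower depletion libraries without overlap. The endoderm factor gene Sox7 was at -0.30 ± 0.19 (SE, adjusted p = 0.465), and the laminin gene Lama1 at -0.06 ± 0.06 (SE, adjusted p = 0.684).

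Col4a1 had 68.2 and 59.8 CPM in the controls and 85.3 and 82.0 CPM after depletion, a log2 fold change of 0.39 ± 0.09 (SE, adjusted p = 0.0142). Col4a2 had 64.9 and 67.4 CPM in the controls and 80.6 and 85.4 CPM after depletion, a log2 fold change of 0.33 ± 0.09 (SE, adjusted p = 0.0418). Both are long genes, of 114 and 136 kb in the longest decile, with a median of 0.10 there. With the length trend removed the adjusted p was 0.0990 for Col4a1 and 0.247 for Col4a2, and under the recovered factors it was 0.0541 and 0.154. When a single library was left out, the log2 fold change lay between 0.30 and 0.49 for Col4a1 and between 0.29 and 0.37 for Col4a2. Among other defining factor genes of primitive endoderm, Sox17 had from 1 to 8 counts per library, and Foxa2 from 2 to 5, while Gata4 and Gata6 had no row.

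Among the mES cell markers, Utf1, a chromatin-associated factor of pluripotent cells, was the gene called. It had 38.8 and 46.9 CPM in the controls and 28.9 and 27.4 CPM after depletion, and fell by 0.61 on the log2 scale (SE 0.12, adjusted p = 0.00358). The log2 fold change of Utf1 lay between -0.73 and -0.46 when a single library was left out. The other 9 markers tested, Pou5f1, Sox2 and Nanog among them, lay between -0.21 and 0.10 and were not called. DESeq2 called none of Egr1, Ccnd1, Col4a1, Col4a2 and Utf1, and with library totals as the scaling Egr1 had an adjusted p of 0.0550. Of 8 fibroblast markers 1 had a row, Thy1, with from 3 to 9 counts per library, and of 6 trophoblast markers 2 were tested and 0 were called.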

How the data were processed

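Per the labels and the study's methods, the authors trimmed adapters with cutadapt 1.18, mapped reads uniquely to mm10 with Bowtie 1.2.2, collapsed them by molecular identifier and deposited whole-number counts of nascent 3′ ends over CAGE-corrected genes, per library and not normalized. The authors also deposited a DESeq2 table with a mean normalized signal per gene, made by dividing counts by size factors and averaging over the 4 libraries. It was used only to recover those factors, by regression on the counts. According to the paper, scaling relied on reads from the Drosophila spike-in, and replicates of a condition shared a factor. The recovered factors were 0.699 (control replicate 1), 0.740 (control replicate 2), 1.325 (depletion replicate 1) and 1.235 (depletion replicate 2). They thus differed within each condition, and whether they hold the spike-in scaling was not tested. The table's fold changes, errors and p-values were not used, nor were spike-in counts.

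Of 12486 genes, 11853 passed filterByExpr (minimum count 10, minimum total 15), all 9 listed genes with a row among them. After TMM scaling, edgeR 4.0.16 (R 4.3.3) tested depletion against control by quasi-likelihood, two-sided, without covariates, and p-values were Benjamini-Hochberg adjusted across all genes tested. Standard errors follow from the F statistic. Alternatives were DESeq2 1.42.0, limma-voom (limma 3.58.1), the likelihood ratio test, other scalings and filters, a length trend (loess, span 0.3), a replicate block and leaving out each library. The scripts were tested on simulated data. Positions and lengths came from GENCODE M21, which matched 12474 genes.

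Named are the listed genes, called genes of the related lists and Zfp574, and most others are marked as picked after their values were seen. Without such a mark, Pou5f1, Sox2, Nanog, Sox17, Foxa2, Gata4, Gata6 and Thy1 are named from the marker lists. So are Grb2 and Rps6ka3 from the list of signal transduction. The listed genes and the lists were chosen with earlier results of these data known. With 2 biological replicates per group, p-values measure the spread between these libraries. In the edgeR fit each gene's spread was moderated towards that of other genes (median prior degrees of freedom 25.02). One gene of the related lists is not reported here by name.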

Additional observations from a re-analysis of the deposited data

How the results depend on the processing

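The count of listed genes called higher was 0 in the TMM-scaled edgeR fit. It was 1 with limma-voom (1.27% of all genes) and 1 with the length trend removed (0.498%). The count called lower stayed at 0, except that recovered factors together with the length trend gave 1 (Etv5, 6.2% of all genes). The sources used here do not say whether replicate numbers mark pairs, and this was not tested. Over all genes tested, same-numbered libraries deviated from their group means with a correlation of 0.03. Under a replicate block, 2 of the 9 were called higher (Spry4 and Spred2, adjusted p of 4.25e-05 and 0.00626), against 3.09% of all genes; the cause was not tested.

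In the rest of the pathway, the count called higher moved from 1 to 0 with library totals, DESeq2 or a 2-fold threshold and to 4 of 54 under the replicate block (3.09% of all genes), and lay between 0 and 3 when a library was left out. The count called lower moved from 1 to 4 with the recovered factors (5.89% of all genes) and to 5 with these and the length trend (6.2%). It was 2 under the replicate block (2.53%). With DESeq2 (0.515%), the length trend removed (1.24%) or a 2-fold threshold (0.321%) it was 0.

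The median of the 9 genes moved from 0.09 to -0.012 with the recovered factors and -0.0060 with these and the length trend, and lay between 0.043 and 0.096 when a library was left out. That of all genes tested was -0.036 for library totals and -0.11 for the recovered factors, where a change of scaling shifts all genes together. It was -0.013 with the length trend removed and -0.12 for the recovered factors and the length trend. When a library was left out it lay between -0.0030 and 0.0036. That of the rest of the pathway moved from 0.08 to 0.046 for library totals, -0.024 for the recovered factors and -0.046 for these and the length trend, and lay between 0.041 and 0.11 when a library was left out. Direction reversed for Fgfr1 (-0.012) and Spry2 (-0.048) with the recovered factors, and for Fgfr1 (-0.061), Spry2 (-0.0016) and Spred2 (-0.0060) with these and the length trend. In fits without a library, the lone library of a group is assumed to vary like the other group. Depth limits Dusp4 and Dusp6 most, whose intervals are the widest of the 9.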
